A study of Mus musculus with 4 samples.

Results

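The receptors for neuropeptides were followed through the cells of the mouse ventromedial prefrontal cortex (vmPFC). The genes were given as a list of 10 of the 31053 genes in the count matrices: Crhr1, Npy1r, Npy2r, Npy5r, Sstr1, Sstr2, Sstr3, Hcrtr2, Oxtr and Rxfp1. The rule itself uses no measured value, but the list was chosen with earlier results of these data known. Counts of receptors called are therefore not those of a blind list. All 10 were measured in every library. The mice were male and of the strain C57BL/6. Their labelled age is 8 weeks, the age at virus injection by the study's methods, and they were sacrificed weeks later. Every one had received, on one side of the brain, retrograde rAAV-EGFP viruses that carried 5 different barcodes into 5 targets of the vmPFC, namely the agranular insular cortex (AI), the dorsomedial striatum (DMS), the mediodorsal thalamus (MD), the basolateral amygdala (BLA) and the lateral hypothalamus (LH). No uninjected mouse was among the samples, so all groups share the virus. The prelimbic and infralimbic areas were dissected and dissociated, and 3 libraries without sorting, titled mouse 1 to 3 and here called unsorted 1, unsorted 2 and unsorted 3, were made beside 1 library from 3 other mice, whose cells were sorted for EGFP and pooled. The 7 subtypes of excitatory neurons are the authors' deposited annotation, and each is named after a layer and a marker gene.

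Neuropeptide receptors are G-protein-coupled receptors of the cell surface that answer to peptides released by neighbouring interneurons or by distant neurons, many of them hypothalamic. The receptors for neuropeptide Y (Npy1r, Npy2r, Npy5r) and for somatostatin (Sstr1, Sstr2, Sstr3) couple mainly to inhibitory G proteins, which lower cyclic AMP and open potassium channels. The receptors for corticotropin-releasing hormone (Crhr1) and relaxin (Rxfp1) raise cyclic AMP, and those for orexin (Hcrtr2) and oxytocin (Oxtr) act mainly through phospholipase C. In the cortex, somatostatin and neuropeptide Y come largely from interneurons, whereas orexin and oxytocin arrive on axons from the hypothalamus.

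The promoters of 4 receptors are shown because the results turn on them. Npy1r and Npy5r are neighbours with a similar pattern over the neuronal groups, and Npy2r marked 1 subtype and part of another. Sstr2, of the 8 receptors with a promoter entry, was the one that held a cyclic AMP response element. Npy1r lies at chr8:66697192-66706792 on the plus strand and Npy5r at chr8:66679965-66688128 on the minus strand, so that they are transcribed away from each other with 9063 bases between the gene models. Npy2r lies at chr3:82538383-82548084 on the minus strand. Sstr2 lies at chr11:113619342-113626028 on the plus strand, inside Slc39a11 of the opposite strand. All gene positions are those of mm10. Each window below comes from RefSeq (GRCm38.p6) and runs from 250 bases before to 50 bases after the start of transcription, 5′ to 3′ on the strand of the gene, with motif matches in capitals.
Npy1r, chr8:66697172-66697471, plus strand: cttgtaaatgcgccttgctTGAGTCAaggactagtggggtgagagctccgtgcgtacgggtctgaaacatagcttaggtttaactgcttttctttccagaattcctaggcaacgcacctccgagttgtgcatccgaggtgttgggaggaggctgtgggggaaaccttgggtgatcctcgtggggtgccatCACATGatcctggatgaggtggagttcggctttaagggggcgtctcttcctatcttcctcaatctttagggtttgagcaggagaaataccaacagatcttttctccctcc
Npy5r, chr8:66688045-66688344, minus strand: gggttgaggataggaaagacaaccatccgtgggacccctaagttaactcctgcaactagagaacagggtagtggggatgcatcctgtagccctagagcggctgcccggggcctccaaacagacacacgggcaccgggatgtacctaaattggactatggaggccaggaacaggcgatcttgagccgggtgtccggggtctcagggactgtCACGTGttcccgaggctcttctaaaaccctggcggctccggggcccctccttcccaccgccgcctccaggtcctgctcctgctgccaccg
Npy2r, chr3:82548036-82548335, minus strand: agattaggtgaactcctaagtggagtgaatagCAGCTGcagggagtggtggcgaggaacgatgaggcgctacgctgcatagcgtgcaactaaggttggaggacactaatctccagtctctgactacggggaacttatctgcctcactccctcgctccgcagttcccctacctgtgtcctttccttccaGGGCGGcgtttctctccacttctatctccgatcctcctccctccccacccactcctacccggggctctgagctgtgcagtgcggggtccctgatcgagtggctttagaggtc
Sstr2, chr11:113619077-113619376, plus strand: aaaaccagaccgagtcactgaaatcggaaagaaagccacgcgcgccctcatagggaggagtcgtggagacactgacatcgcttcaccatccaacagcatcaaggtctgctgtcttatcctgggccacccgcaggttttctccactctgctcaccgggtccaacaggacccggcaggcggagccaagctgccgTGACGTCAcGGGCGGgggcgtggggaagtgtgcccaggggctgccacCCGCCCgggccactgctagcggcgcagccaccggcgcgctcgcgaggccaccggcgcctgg
Both strands were searched for the cyclic AMP response element TGACGTCA, the GC box GGGCGG, the TATA motif TATAAA, the E-box CANNTG and the AP-1 motif TGANTCA, and no matches overlapped in these windows. Npy1r held an AP-1 match 231 bases and an E-box 60 bases before the start. Npy5r held a single E-box, CACGTG, 40 bases before the start. Npy2r held an E-box 218 bases and a GC box 62 bases before the start. Sstr2 held the cyclic AMP response element 58 bases before the start, with GC boxes 49 and 11 bases before it. Of all 32851 windows of the same length, 1.79% held the cyclic AMP response element, 35.7% the GC box, 13.6% the TATA motif, 72.3% the E-box and 7.81% the AP-1 motif. Entries were found for 8 of the 10 receptors, in 9 windows. Sstr1 and Rxfp1 are named only.

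The remaining genes stand alone or beside a partner. Crhr1 lies at chr11:104132855-104175523 (plus strand), Sstr1 at chr12:58211772-58214444 (plus), Sstr3 at chr15:78537008-78544685 (minus) and Oxtr at chr6:112473683-112489943 (minus), without an overlapping gene model. Hcrtr2, at chr9:76225880-76323856 (minus), overlaps an antisense model, and Rxfp1, at chr3:79641611-79737880 (minus), holds another model of its own strand within it. The counting setting for strand is not given in the sources used here, and the values of Sstr2, Hcrtr2 and Rxfp1 carry that limit.

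The matrices held 24801 cell barcodes with between 54749198 and 87841541 unique molecular identifiers (UMIs, counts of captured RNA molecules) per library. Of these, 9368 were annotated excitatory neurons, with a median between 21343.5 UMIs per neuron in unsorted 1 and 31669 in the sorted library. Inhibitory cells, taken as cells outside that annotation with at least 4 UMIs of Gad1 and Gad2 together and at most 3 of Slc17a7, numbered 1283, of which the sorted library held 5. Slc17a7, the vesicular glutamate transporter, stood at 1076 CPM (the UMIs of a gene per 1000000 UMIs of all cells of a group in a library) in excitatory neurons and at 11.9 in inhibitory cells, and Gad1, which makes GABA, at 1.51 and 1051. GEO's labels describe every sample as retrogradely labelled neurons, but 7168 cells, of which 58 were in the sorted library, met the marker rule for microglia, oligodendrocytes, their precursors, astrocytes, endothelial or mural cells. A total of 82 cell barcode sequences occurred in more than one library, and no doublet caller was run.

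Levels are given as CPM, as mean ± SD over 4 libraries unless another n is given. L5-Htr2c rests on the 3 unsorted libraries because the sorted one held 4 such neurons, and at least 10 cells were required. CPM describes one gene across groups and was not compared between genes. Overlap of subtypes refers to their ranges over all libraries, and subtypes that overlap can still keep their order within each library. The sorted library stood above all 3 unsorted ones in 32 of 60 pairs of receptor and subtype, below them in 9 and within their range in 19. For Npy1r (by 1.39- to 1.66-fold of the unsorted mean) and Sstr1 (1.39- to 2.14-fold) it was above in 6 of 6 subtypes. Its neurons were deeper, its cells sorted and its mice different, and these cannot be told apart.

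Every receptor differed among the 7 subtypes. In edgeR's quasi-likelihood test of any difference, with the library as a block, 10 of 10 passed at an adjusted p under 0.05, with adjusted p-values between 8.89e-30 for Crhr1 and 7.22e-13 for Npy5r. The background is that 89.8% of all 13036 genes tested passed. The subtypes were clustered from the same transcriptomes, and such p-values describe only how steady the differences were over these libraries. The receptors were spread unequally over the subtypes when counted per neuron. An L6-Npy neuron had UMIs of 3.19 ± 0.447 of the 10 receptors and an L5-S100b neuron of 3.12 ± 0.398, against 0.643 ± 0.105 (n = 3) in L5-Htr2c, where 49.2% ± 7.07 of neurons had none. These counts are at full depth, and the median was 14555 UMIs per neuron in L5-Htr2c against 20996.5 in L6-Npy and 27083 in L5-S100b.

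**Figure D1:**
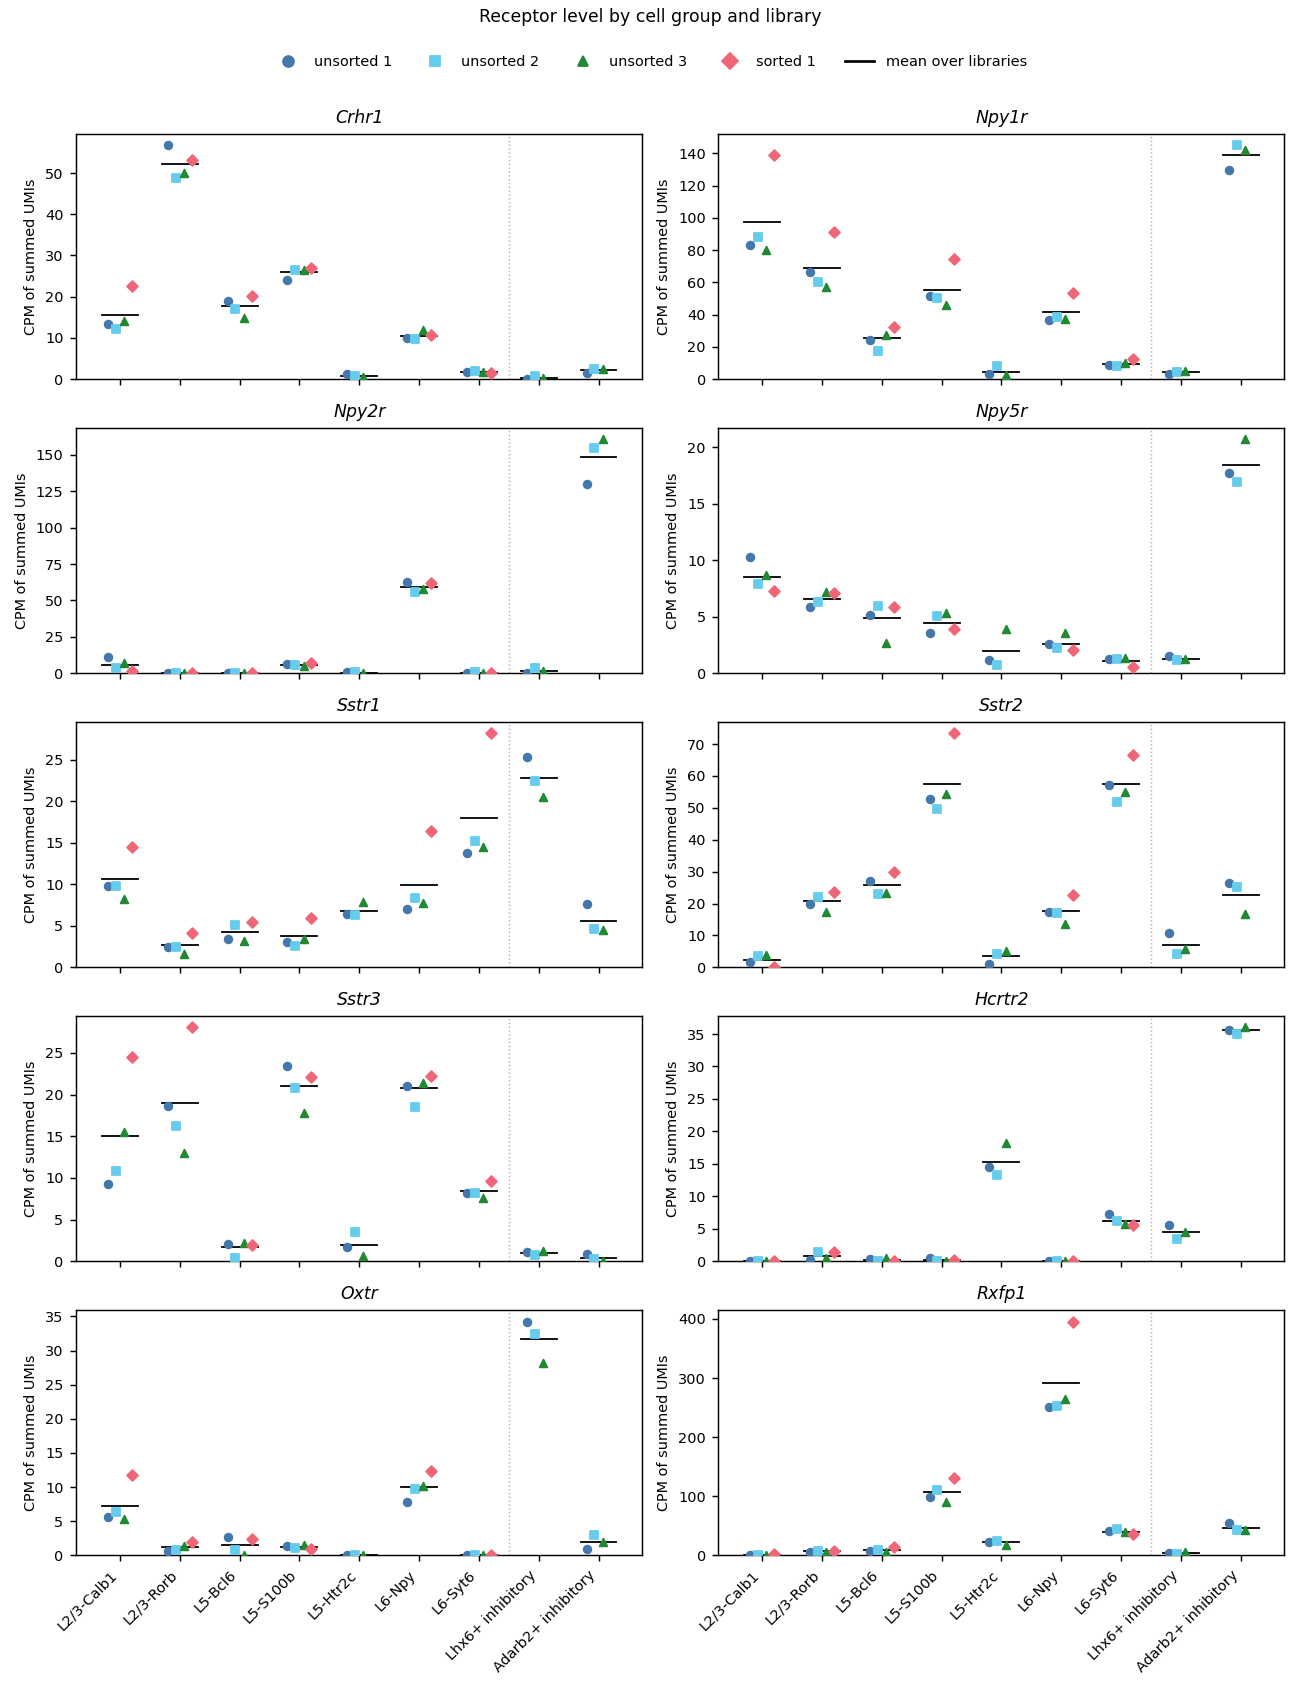
Receptor levels in CPM (y axis, linear, from 0) in 7 excitatory subtypes and in Lhx6+ and Adarb2+ inhibitory cells (x axis), with 1 panel per gene, 1 symbol per library and a bar at the mean over libraries. Rxfp1 is highest in L6-Npy, where the sorted library (396 CPM) stands above the unsorted ones (252 to 265 CPM), and Npy1r and Npy2r have their highest means in Adarb2+ inhibitory cells.

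Crhr1, the main brain receptor for corticotropin-releasing hormone, was highest in L2/3-Rorb neurons. There it stood at 56.7, 48.9 and 50.0 CPM in unsorted 1 to 3 and at 53.1 CPM in the sorted library (52.2 ± 3.50). The 4 libraries lay close together and apart from the next subtype, L5-S100b, which ranged from 24.1 to 27.1 CPM (26.0 ± 1.31). L5-Bcl6 (17.7 ± 2.29 CPM) and L2/3-Calb1 (15.6 ± 4.78 CPM) followed with overlapping ranges, and L6-Npy stood at 10.6 ± 0.913 CPM. The gene was scarce in L6-Syt6 (1.67 ± 0.167 CPM) and L5-Htr2c (0.838 ± 0.283 CPM, n = 3), so that the highest subtype held 62.3-fold the level of the lowest.

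Npy1r, the postsynaptic receptor through which neuropeptide Y dampens excitability, was highest in the upper layers, followed by L5-S100b and L6-Npy. In L2/3-Calb1 it stood at 83.3, 88.0 and 79.8 CPM in unsorted 1 to 3 and at 139 CPM in the sorted library (97.5 ± 27.8), and 84.1% of these neurons had a UMI. The sorted library alone widened this spread. L2/3-Rorb (68.9 ± 15.6 CPM), L5-S100b (55.6 ± 12.9 CPM) and L6-Npy (41.6 ± 8.01 CPM) came next, each overlapping its neighbour. Within every library, however, the order from L2/3-Calb1 down to L6-Npy was the same. L5-Bcl6 (25.4 ± 6.27 CPM) was apart from both its neighbours, and L6-Syt6 (9.72 ± 1.88 CPM) and L5-Htr2c (4.63 ± 3.24 CPM, n = 3) were lowest and overlapped. Npy5r, its genomic neighbour and another neuropeptide Y receptor, was low everywhere and followed a similar order, from 8.53 ± 1.31 CPM in L2/3-Calb1 and 6.598 ± 0.624 CPM in L2/3-Rorb to 1.09 ± 0.359 CPM in L6-Syt6. L2/3-Calb1 was apart from the rest of the order, and every later pair of neighbours overlapped.

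Npy2r, often a presynaptic autoreceptor on neurons that release neuropeptide Y, was concentrated in L6-Npy, the subtype that is named after the peptide itself. It stood at 62.4, 55.6 and 58.0 CPM in the unsorted libraries and at 62.2 CPM in the sorted one (59.5 ± 3.32), and 58.8% of these neurons had a UMI. No other subtype came near. L5-S100b held 6.28, 5.82, 5.03 and 6.72 CPM in the same order (5.96 ± 0.721), in 9.20% of neurons. L2/3-Calb1 held a similar mean with a wider spread of 11.3, 3.44, 6.77 and 1.81 CPM (5.84 ± 4.19). The remaining 4 subtypes lay between 0.219 and 0.427 CPM, with a UMI in at most 0.617% of neurons. That is close to the background of free RNA: outside mural cells for Npy1r, oligodendrocyte precursors for Sstr1 and microglia for Rxfp1 (1.27%), no receptor had a UMI in more than 0.589% of any of the 6 non-neuronal classes, whose median depths were 2341 to 4769 UMIs against 23395 for excitatory neurons. Shares at that level are read as background. Npy itself stood at 212 ± 59.9 CPM in L6-Npy and at most at 4.81 CPM in the other 6 subtypes.

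The 3 somatostatin receptors had separate patterns. Sstr1 was highest in L6-Syt6, with 13.8, 15.2 and 14.5 CPM in the unsorted libraries and 28.2 CPM in the sorted one (17.9 ± 6.90). The sorted library stood far above the others here, and the ranges of L6-Syt6, L2/3-Calb1 (10.6 ± 2.72 CPM), L6-Npy (9.88 ± 4.41 CPM) and L5-Htr2c (6.84 ± 0.861 CPM, n = 3) overlapped in that order. Within every library, however, L6-Syt6 stood above L2/3-Calb1, which held 8.22 to 9.83 CPM in the unsorted libraries and 14.5 CPM in the sorted one. L5-Bcl6, L5-S100b and L2/3-Rorb, at 4.27 ± 1.14, 3.71 ± 1.53 and 2.65 ± 1.05 CPM, overlapped with each other and lay apart from L5-Htr2c.

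Sstr2, the receptor that brings somatostatin's block of firing to many cortical neurons, was equally high in a layer 6 and a layer 5 subtype. L6-Syt6 held 57.1, 51.9 and 55.0 CPM in the unsorted libraries and 66.4 CPM in the sorted one (57.6 ± 6.25). L5-S100b held 52.8, 49.8, 54.4 and 73.3 CPM (57.6 ± 10.7). About equal shares of these neurons had a UMI, 67.0% in L6-Syt6 and 66.3% in L5-S100b, and the ranges overlapped. L5-Bcl6 (25.9 ± 3.29 CPM), L2/3-Rorb (20.7 ± 2.72 CPM) and L6-Npy (17.7 ± 3.78 CPM) formed an overlapping middle group, and L5-Htr2c (3.52 ± 2.11 CPM, n = 3) and L2/3-Calb1 (2.21 ± 1.79 CPM) the bottom. Sstr3, which is known from neuronal cilia, was at 21.0 ± 2.45 CPM in L5-S100b, 20.8 ± 1.63 in L6-Npy, 19.0 ± 6.49 in L2/3-Rorb and 15.0 ± 6.86 in L2/3-Calb1. These 4 overlapped, as did L2/3-Calb1 with L6-Syt6 (8.41 ± 0.902 CPM). L5-Htr2c (1.96 ± 1.43 CPM, n = 3) and L5-Bcl6 (1.68 ± 0.842 CPM) were lower than all of these. L5-Bcl6 thus held Sstr2 at an intermediate level and almost no Sstr3.

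Hcrtr2, the orexin receptor of both orexin peptides, was held mainly by 2 subtypes. L5-Htr2c held 14.6, 13.3 and 18.3 CPM in unsorted 1 to 3 (15.4 ± 2.60, n = 3), in 19.1% of neurons. L6-Syt6 held 7.23, 6.26 and 5.81 CPM in the unsorted libraries and 5.55 CPM in the sorted one (6.21 ± 0.740), in 9.75% of neurons. The 2 subtypes were apart from each other and from L2/3-Rorb (0.852 ± 0.603 CPM, 2.00% of neurons). In L6-Npy no UMI was found in 1118 neurons, which allows a share of up to 0.268%, and in L2/3-Calb1 none in 357 neurons, which allows up to 0.840%. Such floors, set at 3 counts over the group, and all intervals here cover counting error only. Against that floor, Hcrtr2 was at least 50.7-fold higher in L6-Syt6 and at least 125-fold higher in L5-Htr2c than in L6-Npy.

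Oxtr, the oxytocin receptor, was highest in L6-Npy, with 7.75, 9.78 and 10.1 CPM in the unsorted libraries and 12.3 CPM in the sorted one (9.98 ± 1.86), in 17.3% of neurons. L2/3-Calb1 followed with 5.66, 6.39, 5.32 and 11.8 CPM (7.29 ± 3.04), a range that overlapped. L5-Bcl6 (1.51 ± 1.31 CPM), L5-S100b (1.19 ± 0.291 CPM) and L2/3-Rorb (1.19 ± 0.558 CPM) were alike and lower. L6-Syt6, at 0.0655 ± 0.0601 CPM and 0.186% of neurons, was at background. No UMI was found in 317 L5-Htr2c neurons, which allows up to 0.946%, and Oxtr was at least 15.8-fold higher in L6-Npy than there.

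Rxfp1, the relaxin receptor, spanned 307-fold between the highest and the lowest subtype. L6-Npy held 252, 253 and 265 CPM in the unsorted libraries and 396 CPM in the sorted one (291 ± 69.7), in 87.2% of neurons. L5-S100b held 98.8, 110, 89.9 and 131 CPM (108 ± 17.8), in 56.0%. L6-Syt6 held 40.4, 44.0, 38.9 and 36.0 CPM (39.8 ± 3.32), in 36.2%. Each of these steps was apart, as were those to L5-Htr2c (21.8 ± 3.17 CPM, n = 3) and L5-Bcl6 (9.13 ± 4.10 CPM). L5-Bcl6 overlapped with L2/3-Rorb (6.56 ± 0.365 CPM), and L2/3-Calb1 was lowest at 0.949 ± 0.621 CPM.

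Depth sets how often a low gene is seen, so shares were also computed for neurons thinned to 10000 UMIs, with 270 of 9368 excitatory neurons and 354 of 1283 inhibitory cells too shallow to enter. The subtype with the highest share stayed the same for all receptors but Sstr2 and Sstr3, for which it changed between near-equal subtypes. Npy1r in L2/3-Calb1 went from 84.1% to 61.2%, Crhr1 in L2/3-Rorb from 68.2% to 40.2%, and Npy2r in L6-Npy from 58.8% to 40.5%. Rxfp1 in L6-Npy went from 87.2% to 79.3%, a smaller loss than for these. Sstr2 was at 40.3% in both L6-Syt6 and L5-S100b, and Sstr3 at 18.4% in L6-Npy and 18.3% in L5-S100b.

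**Figure D2:**
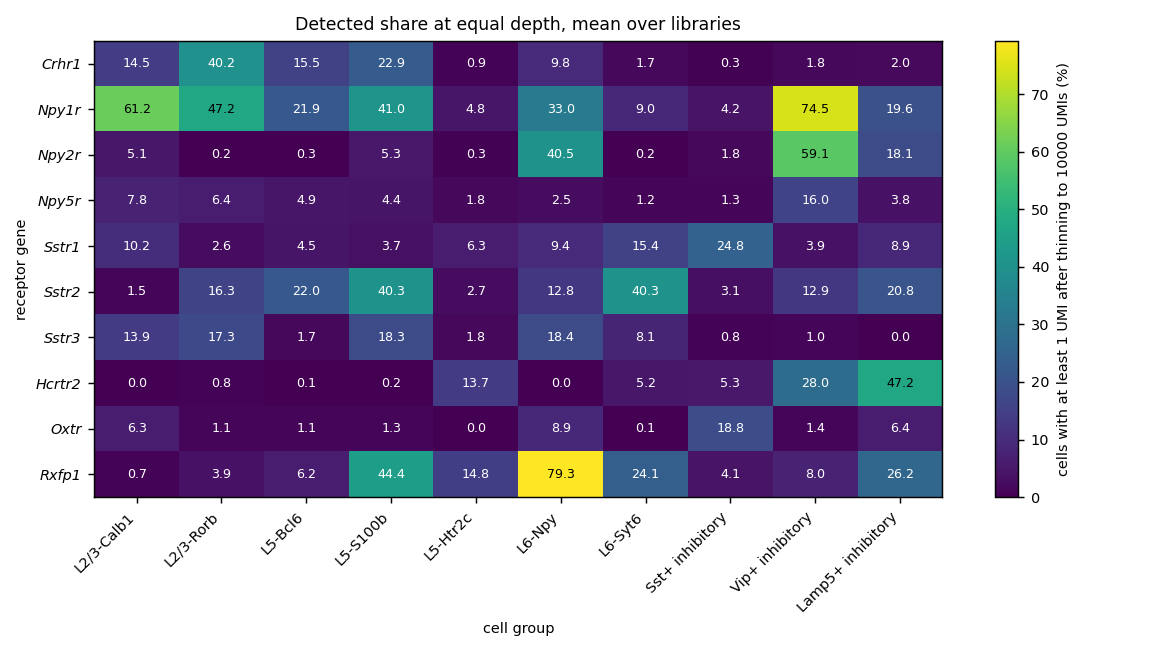
Share of cells (%, color scale and printed value) with at least 1 UMI of each receptor gene (rows) after thinning every cell to 10000 UMIs, as the mean over libraries, in 7 excitatory subtypes and 3 marker groups of inhibitory cells (columns). Rxfp1 in L6-Npy (79.3%) and Npy1r in L2/3-Calb1 (61.2%) are the highest of the excitatory subtypes.

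Subtypes of one layer were then compared pairwise. A gene is called in a contrast if its adjusted p in edgeR's quasi-likelihood test is under 0.05 and its log2 fold change is 0.5 or more in either direction, and log2 fold changes carry their SE. In layer 2/3, L2/3-Rorb neurons held more Crhr1, Sstr2, Rxfp1 and Hcrtr2 than L2/3-Calb1 neurons and less Npy2r, Sstr1 and Oxtr. These are 7 of 10 receptors, beside 21.8% of all genes called. Crhr1 was higher by 1.86 ± 0.125 (adjusted p = 1.49e-14) and Sstr2 by 3.03 ± 0.292 (adjusted p = 1.35e-10), in 4 of 4 libraries. Sstr1 differed by -1.996 ± 0.229 (adjusted p = 6.68e-09), in 4 of 4 libraries. The upper-layer subtypes thus differed in somatostatin receptors, with more Sstr2 in L2/3-Rorb and more Sstr1 in L2/3-Calb1. Both held Sstr3, at 19.0 and 15.0 CPM with overlapping ranges. Npy2r (-4.56 ± 0.605), Oxtr (-2.51 ± 0.431) and Rxfp1 (2.95 ± 0.619) were low in the lower group. Hcrtr2 rests on 13 UMIs against 0, is at least 1.91-fold higher by the floor of 3 counts, and its call (adjusted p = 0.0364) was lost without unsorted 2 (adjusted p = 0.131), unsorted 3 (0.0636) or the sorted library (0.0602) and without the block (0.0541). Npy1r (-0.45 ± 0.0845), Npy5r (-0.34 ± 0.260) and Sstr3 (0.44 ± 0.206) were not called. Npy1r was called without unsorted 1 (-0.51, adjusted p = 6.00e-04) and Sstr3 without unsorted 3 (0.65, adjusted p = 0.0290).

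In layer 5, L5-S100b held more of 6 receptors than L5-Bcl6, and less of none, beside 22.1% of all genes called. Rxfp1 was higher by 3.58 ± 0.174 (adjusted p = 1.21e-18), Sstr3 by 3.64 ± 0.290 (adjusted p = 9.13e-13) and Npy2r by 4.74 ± 0.616 (adjusted p = 7.12e-08), each in 4 of 4 libraries with ranges apart. Sstr2 (1.15 ± 0.108), Npy1r (1.13 ± 0.102) and Crhr1 (0.55 ± 0.113) were higher by less. Without unsorted 3 the difference of Crhr1 was 0.47 (adjusted p = 0.00624) and no longer called. Npy5r (-0.14 ± 0.266), Sstr1 (-0.21 ± 0.219), Hcrtr2 (-0.15 ± 1.27) and Oxtr (-0.43 ± 0.516) were not called. The median of the 10 receptors was 0.84, beside -0.0028 for all genes.

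In layer 6, all 10 receptors were called between L6-Npy and L6-Syt6, beside 33.1% of all genes. The neurons of L6-Npy held more Npy2r (7.28 ± 0.154, adjusted p = 1.5e-29), Oxtr (6.91 ± 0.304, adjusted p = 1.5e-19), Rxfp1 (2.76 ± 0.0873), Crhr1 (2.56 ± 0.133), Npy1r (2.01 ± 0.0768), Sstr3 (1.22 ± 0.109) and Npy5r (1.15 ± 0.255). The neurons of L6-Syt6 held more Hcrtr2 (adjusted p = 8.26e-13), Sstr2 (-1.78 ± 0.0805) and Sstr1 (-0.93 ± 0.0802). The ranges of the libraries were apart for 9 receptors. For Sstr1 they overlapped, although L6-Npy was lower in 4 of 4 libraries. The median of the 10 receptors was 1.62, beside -0.0076 for all genes. All 10 calls held under each of 7 alternatives.

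**Figure D3:**
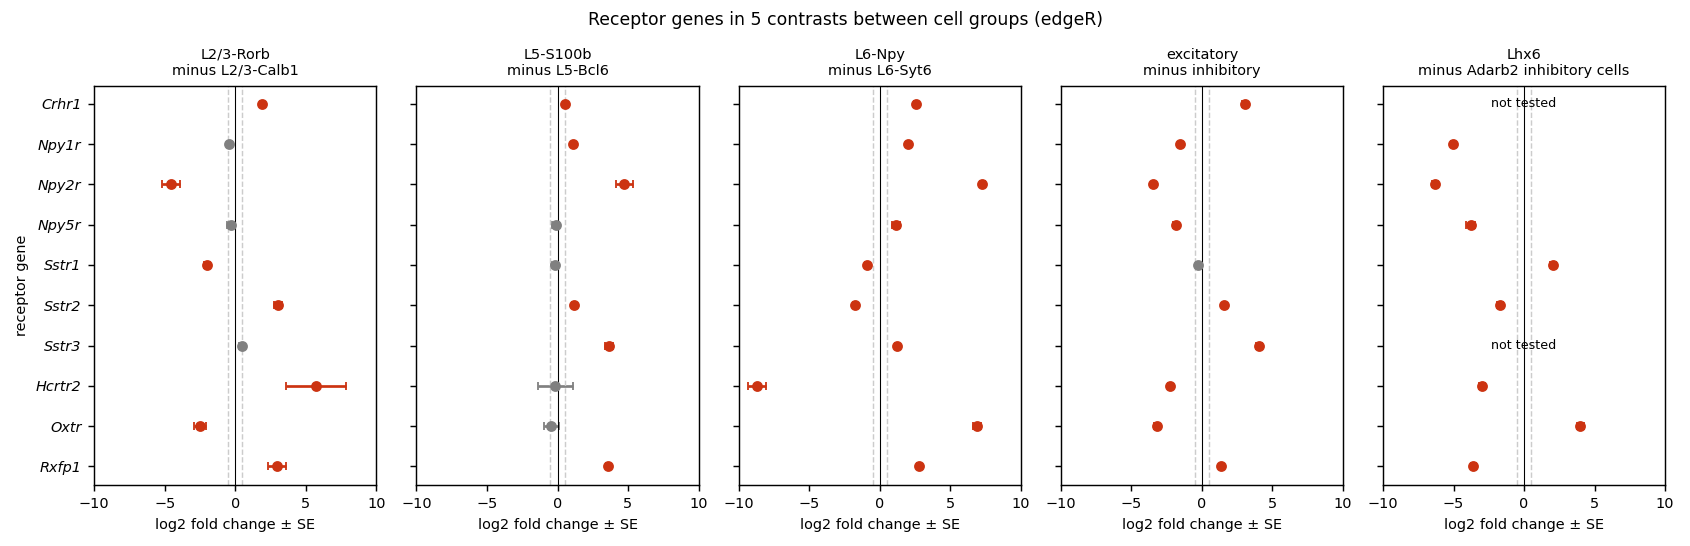
Log2 fold change ± SE (x axis, edgeR) of the 10 receptor genes (y axis) in 5 contrasts between cell groups, with called genes in red, genes not called in grey and dashed lines at the fold threshold of 0.5. All 10 genes are red in the layer 6 contrast, and Npy1r, Npy2r and Npy5r lie left of 0 in the last 2 panels.

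The rest of the signalling chain was followed with 3 lists: 15 ligands and binding proteins of the receptor families, 33 other peptide receptors, and 20 transducers. In layer 2/3, 1 of 4 ligands tested was higher in L2/3-Rorb (Sst, 1.46) and 1 lower (Avp, -2.44). Of 14 other receptors tested 3 were higher and 3 lower, with Mc4r (-3.79), the melanocortin receptor, and Trhr (2.14), the receptor for thyrotropin-releasing hormone, the most changed. Of 20 transducers 5 were higher and 3 lower, led by Rgs4 (1.81), which shortens G-protein signals, and Adcy9 (-1.37), an adenylyl cyclase. The medians of the 3 lists were 0.66, 0.40 and 0.18, beside -0.0024 for all genes, of which 21.8% were called.

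In layer 5, 1 of 4 ligands was higher in L5-S100b (Npy, 1.63) and 1 lower (Cort, -3.22). Of 14 other receptors 5 were higher, with Hcrtr1 (5.47), the second orexin receptor, and Trhr (5.09) leading, and 2 lower. Of 20 transducers 4 were higher and 2 lower, led by Plcb4 (-1.38), a phospholipase C, and Gnal (0.72), a stimulatory G protein. The medians were -0.48, 0.19 and -0.024, and 22.1% of all genes were called. In layer 6, 2 of 4 ligands were higher in L6-Npy (Npy, 6.45, and Avp, 2.48). Of 14 other receptors 7 were higher and 3 lower, led by Avpr1a (-5.30), a vasopressin receptor, and Tacr3 (4.58), the neurokinin B receptor. Of 20 transducers 2 were higher and 7 lower in L6-Npy, beside 33.1% of all genes called (1963 higher and 2349 lower), led by Plcb4 (-2.79) and Adcy2 (-2.12). The medians were 1.19, 0.44 and -0.18. Sst in excitatory neurons was at a few CPM, against 9091 CPM in Lhx6+ inhibitory cells, and the part of free Sst or Npy RNA in the ligand values was not tested.

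Excitatory neurons as a whole were compared with inhibitory cells in the 3 unsorted libraries. Excitatory neurons held more Crhr1, Sstr2, Sstr3 and Rxfp1, and inhibitory cells more of the 3 neuropeptide Y receptors, Hcrtr2 and Oxtr. These are 9 of 10 receptors called, beside 40.4% of 15266 genes, and all 9 calls held under 8 alternatives. Npy2r stood at 71.7, 88.0 and 88.2 CPM in the inhibitory cells of unsorted 1 to 3 and at 7.44, 6.71 and 7.09 CPM in excitatory neurons (-3.44 ± 0.0699, adjusted p = 9.36e-35). Oxtr stood at 15.4, 15.1 and 13.2 CPM against 1.35, 1.42 and 1.60 CPM (-3.22 ± 0.164, adjusted p = 1.19e-20). The groups were apart by a wide margin for both. Hcrtr2 (22.0 ± 0.554 against 4.16 ± 0.384 CPM, n = 3), Npy5r (10.7 ± 0.850 against 2.75 ± 0.235 CPM, n = 3) and Npy1r (78.5 ± 5.65 against 24.8 ± 0.682 CPM, n = 3) were likewise higher in inhibitory cells. In the other direction, Sstr3 stood at 0.739 ± 0.215 CPM in inhibitory cells and at 11.5 ± 0.685 CPM in excitatory neurons (n = 3, 4.04 ± 0.219), and Crhr1 at 1.44 ± 0.435 and 10.97 ± 0.427 CPM (n = 3, 3.03 ± 0.193). Sstr2 (1.56 ± 0.0835) and Rxfp1 (1.34 ± 0.0666) differed by less. Sstr1 did not pass the fold threshold, at -0.28 ± 0.108. Both sides are unequal mixtures: in unsorted 1, 1511 of 2816 excitatory neurons were L6-Syt6 and 272 of 443 inhibitory cells Adarb2+. Single groups can go the other way. In L2/3-Calb1, Sstr2 (unsorted mean 2.95 CPM) and Rxfp1 (0.661 CPM) lay below inhibitory cells (15.8 and 27.9 CPM). Npy1r in Lhx6+ cells (4.29 CPM) lay below excitatory neurons. The part of the mixture in the calls was not tested. Inhibitory cells were shallower, with a median of 13601 UMIs, and all 9 calls were kept within 10000 to 40000 UMIs per cell. That window did not make depth equal: in unsorted 1 the medians were still 15853 against 21581 UMIs. The part of depth was not tested.

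The ligands showed where the peptides are made. None of 8 tested was higher in excitatory neurons and 6 were higher in inhibitory cells, led by Sst (-9.75) and Crhbp (-9.22), the binding protein of corticotropin-releasing hormone, with a median of -7.02 beside 0.0087 for all genes. Of 18 other receptors 8 were higher in excitatory neurons and 7 lower, led by Grpr (-9.12), the gastrin-releasing peptide receptor, and Crhr2 (-5.80), with a median of 0.78. Of 20 transducers 6 were higher and 2 lower, led by Rgs4 (2.40) and Adcy1 (1.63), with a median of 0.21, and the 8 called are a share near the 40.4% of all genes called.

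Inhibitory cells were divided by Lhx6, a transcription factor of interneurons from the medial ganglionic eminence, and Adarb2, a marker of those from the caudal one. The groups held 425 and 796 cells, with median depths of 17830 and 11139 UMIs, and 13 further cells had both and 49 neither. The receptors fell into opposite groups. All 8 receptors tested were called, beside 21% of 11515 genes, and all 8 calls held under 9 alternatives. Oxtr stood at 34.3, 32.4 and 28.2 CPM in the Lhx6+ cells of unsorted 1 to 3 and at 0.884, 3.01 and 1.91 CPM in Adarb2+ cells (3.99 ± 0.256, adjusted p = 6.94e-13). Sstr1 stood at 25.3, 22.5 and 20.5 CPM against 7.66, 4.65 and 4.46 CPM (2.02 ± 0.209, adjusted p = 8.66e-09). These 2 were the genes of the Lhx6+ cells. Npy2r stood at 0.372, 3.81 and 1.23 CPM in Lhx6+ cells against 130, 155 and 161 CPM in Adarb2+ cells (-6.32 ± 0.191, adjusted p = 5.66e-20). Npy1r stood at 2.98, 4.57 and 5.32 CPM against 130, 145 and 142 CPM (-5.01 ± 0.144, adjusted p = 1.78e-20). Npy5r (-3.79 ± 0.309), Rxfp1 (-3.59 ± 0.206), Hcrtr2 (-2.97 ± 0.198) and Sstr2 (-1.72 ± 0.220) were also lower in Lhx6+ cells. Crhr1 and Sstr3 were too low to be tested. The median of the 8 was -3.28, beside -0.0049 for all genes.

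Among ligands, 5 of 6 were higher in Lhx6+ cells, led by Sst (10.99) and Crhbp (10.24), and 1 lower, with a median of 3.91. Of 9 other receptors 5 were higher and 3 lower, led by Tacr1 (6.51), the substance P receptor, and Grpr (-6.07), with a median of 2.24. Of 20 transducers 4 were higher and 4 lower, led by Rgs4 (2.58) and Adcy8 (1.33), with a median of 0.0082, beside 21% of all genes called.

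Marker groups within the inhibitory cells refined this, as a description. In 477 Vip+ cells, Npy1r stood at 169 ± 14.7 CPM, Npy2r at 160 ± 26.8 CPM and Npy5r at 23.1 ± 2.39 CPM (n = 3). In 86 Lamp5+ cells, of which the 3 unsorted libraries held 85, Hcrtr2 stood at 140, 103 and 82.7 CPM and Rxfp1 at 102, 120 and 103 CPM. Vip+ cells thus held the neuropeptide Y receptors, and the orexin and relaxin receptors were highest in Lamp5+ cells, which themselves held Npy at 7797 ± 1452 CPM (n = 3). In 382 Sst+ cells, Oxtr stood at 36.1, 36.7 and 30.5 CPM in the unsorted libraries and Sstr1 at 28.3, 28.0 and 25.3 CPM. The Pvalb+ group was small, with 41 cells. It held Sstr2 at 16.9 and 22.3 CPM in the 2 libraries with at least 10 such cells, and 7 of the other 9 receptors had no UMI in those 32 cells, which allows a share of up to 9.38%.

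The viral feature of the matrices, in which the 5 barcodes are not separated, divides each subtype into neurons with at least 5 viral UMIs (barcode-high) and with none (barcode-zero). A neuron without viral UMIs may still project to a target, and in the sorted library barcode-zero neurons had passed the EGFP gate. The comparison was made within 4 subtypes, with the library as a block.

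In L6-Syt6, barcode-high neurons held less Rxfp1 than barcode-zero neurons. Barcode-high neurons (1635) stood at 21.1, 27.6 and 25.0 CPM in unsorted 1 to 3 and at 28.0 CPM in the sorted library. Barcode-zero neurons (2327) stood at 51.7, 51.2, 46.4 and 47.2 CPM. The highest of the one group lay far below the lowest of the other. The difference was -0.93 ± 0.0836 (adjusted p = 8.33e-04, lower in 4 of 4 libraries) and was called under 9 of 9 alternatives. Hcrtr2 was also called, at 5.62, 2.25, 3.76 and 2.32 CPM against 8.30, 7.35, 6.29 and 15.6 CPM (-1.22 ± 0.289, adjusted p = 0.0369). That call was lost without unsorted 1 (adjusted p = 0.0777), unsorted 2 (0.183) or unsorted 3 (0.0909), without the block (0.120), and within 10000 to 40000 UMIs (0.0700). It was also lost at a threshold of 1 viral UMI (-0.58, adjusted p = 0.232). Sstr1 (0.29 ± 0.0705) and Sstr2 (0.27 ± 0.0696) were higher in 4 of 4 libraries and did not pass the fold threshold. In all, 2 of 8 receptors tested were called, beside 1.67% of 13030 genes.

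The groups in L6-Syt6 differed in other respects as well. Barcode-high neurons were deeper, with a median of 27482 against 22393 UMIs. The summed level of 4 mural markers ranged from 6.25 to 11.3 CPM in barcode-high and from 23.7 to 35.3 CPM in barcode-zero neurons, without overlap. Most of it was Rgs5 (7.90 ± 1.72 against 24.7 ± 6.61 CPM), whereas Pdgfrb and Kcnj8 were near 0 in both (at most 0.484 CPM). In mural cells Rxfp1 stood at 1.71 CPM, below its level in these neurons. The lists of the other 5 non-neuronal classes and of inhibitory cells overlapped between the groups, and Syt6 stood at 145 against 142 CPM. The part of Rgs5 or of depth in the result was not tested. The call was kept within 10000 to 40000 UMIs, but barcode-high neurons were still deeper there, with medians of 24581 against 21851 UMIs in unsorted 1.

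In L5-S100b, barcode-high neurons held less of 3 receptors, of 8 tested, beside 2.7% of 11477 genes. Npy2r stood at 3.25, 2.69 and 3.12 CPM in the 958 barcode-high neurons of unsorted 1 to 3 and at 4.41 CPM in the sorted library. The 195 barcode-zero neurons stood at 11.5, 24.8, 6.77 and 12.5 CPM. All 4 values of barcode-zero neurons lay above those of barcode-high neurons, with a wide spread (-1.99 ± 0.314, adjusted p = 5.49e-05), and the call was kept in 9 of 9 alternatives. Rxfp1 stood at 87.6, 109, 82.9 and 110 CPM against 140, 151, 126 and 161 CPM (-0.55 ± 0.0785, adjusted p = 1.35e-05). Its call was close to the fold threshold. It fell just short of it within 10000 to 40000 UMIs (-0.50) and at 1 viral UMI (-0.48), and missed the adjusted p without the block (0.0904). Npy1r stood at 45.1, 45.3, 42.9 and 68.9 CPM against 81.4, 76.7, 60.0 and 75.0 CPM (-0.54 ± 0.114, adjusted p = 0.00205). That call was lost without unsorted 1 (-0.42) or unsorted 2 (-0.48), at 1 viral UMI (-0.48), and without the block (adjusted p = 0.256). Sstr2 (0.48 ± 0.128, adjusted p = 0.0181) was not called, but passed without unsorted 1 (0.55) or unsorted 3 (0.64) and without the filter on low counts (0.52). Sstr1 (-1.20 ± 0.375, adjusted p = 0.0521) was not called and passed without unsorted 3 (-1.50, adjusted p = 0.0117).

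Genes that name the subtypes also differed between the barcode groups of L5-S100b. S100b stood at 56.9 against 27.6 CPM, Calb1 at 6.44 against 14.0, Bcl6 at 3.55 against 8.25 and Npy at 3.13 against 7.39, in barcode-high and barcode-zero neurons. Barcode-high neurons were deeper (median 28755 against 22441 UMIs), and no list of non-neuronal or inhibitory markers was apart between the groups. With neurons that had an Npy2r UMI left out, an alternative chosen after seeing the data, Rxfp1 (-0.502, adjusted p = 0.00363) and Npy1r (-0.61, adjusted p = 0.00736) were both called. Rxfp1 was only just past the fold threshold. A missing UMI does not show that a neuron lacks Npy2r, so this setting cannot take out every neuron of that kind. The part of the makeup of the subtype in these results was not tested.

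In L6-Npy, 2 of 8 receptors were called, beside 0.801% of 10365 genes. Npy2r stood at 54.8, 44.9, 48.3 and 60.3 CPM in 535 barcode-high neurons and at 75.0, 78.5, 71.2 and 72.3 CPM in 232 barcode-zero neurons (-0.50 ± 0.105, adjusted p = 0.00398). Sstr2 stood at 24.4, 23.9, 17.0 and 23.4 CPM against 8.65, 7.77, 4.34 and 23.8 CPM (1.00 ± 0.236, adjusted p = 0.0156). The groups of Npy2r were apart, and those of Sstr2 overlapped through the sorted library. Neither call was steady, with Npy2r kept in 2 and Sstr2 in 3 of 9 alternatives. Npy2r was lost without unsorted 2 (-0.40) or unsorted 3 (-0.49), and Sstr2 without unsorted 1 (adjusted p = 0.180), unsorted 2 (0.0940) or unsorted 3 (0.217). Both were lost in DESeq2 (adjusted p = 0.580 and 0.509) and without the block (0.701 and 0.959). Rxfp1, which differed in the subtypes above, was at 279 ± 66.1 against 257 ± 64.5 CPM here (0.13 ± 0.0672). Npy itself was at 187 ± 57.0 against 253 ± 65.3 CPM.

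In L2/3-Rorb, with 453 barcode-high and 126 barcode-zero neurons, none of 6 receptors tested was called by edgeR, beside 0.139% of 10038 genes, and none had an unadjusted p under 0.05. DESeq2 called none either. Rxfp1 was at 7.58 ± 0.962 against 4.19 ± 3.95 CPM (0.74 ± 0.446, adjusted p = 0.799). Crhr1, which was higher in this subtype than in the others, was at 52.6 ± 3.82 against 49.6 ± 4.80 CPM (0.10 ± 0.142). The summed markers of inhibitory cells reached 67.0 CPM in one library of barcode-zero neurons, and those of oligodendrocytes were at 12.3 to 15.8 against 21.1 to 27.6 CPM. Their part was not tested.

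The barcode difference itself differed between the 4 subtypes for 3 of 10 receptors, beside 7.37% of 12081 genes, in edgeR's test of the interaction. For Rxfp1 the adjusted p was 5.87e-07 and the call was kept in 9 of 9 alternatives. For Npy2r it was 0.00531, and the call was lost without unsorted 1 (0.0532) or unsorted 2 (0.241) and in DESeq2 (0.104). For Sstr1 it was 0.0276, and the call was lost without unsorted 1 (0.218), unsorted 2 (0.204) or the sorted library (0.131), without the block (0.690) and at 1 viral UMI (0.174). Without the sorted library Npy1r (0.00311) and Sstr2 (0.00125) were called in addition.

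**Figure D4:**
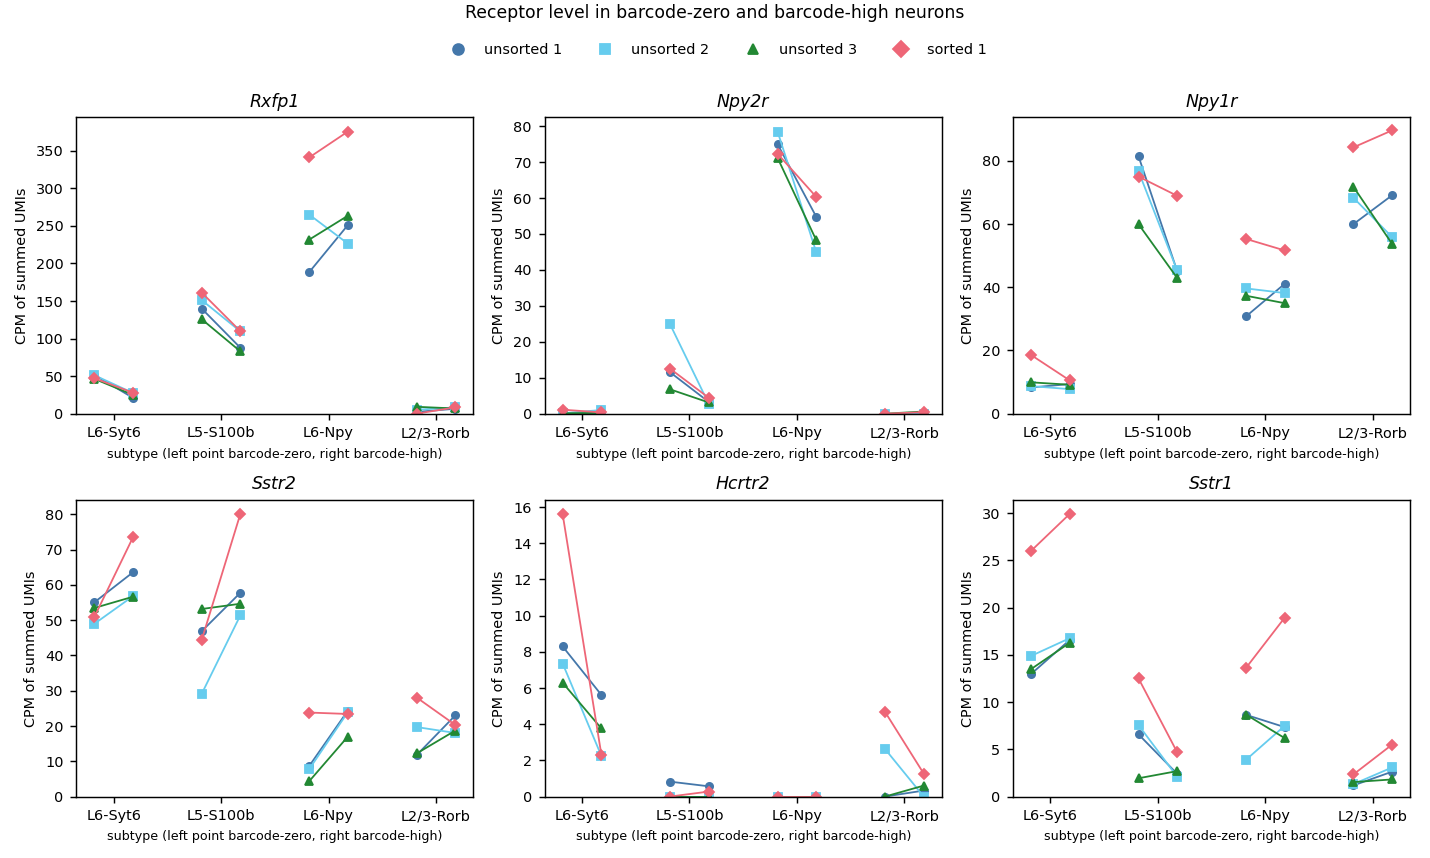
Levels of 6 receptor genes in CPM (y axis, linear, from 0) in barcode-zero (left point) and barcode-high neurons (right point) of 4 subtypes (x axis), with a line per library. For Rxfp1 all 4 lines fall in L6-Syt6 (from 46.4 to 51.7 CPM to 21.1 to 28.0 CPM) and in L5-S100b, and 3 of 4 rise in L6-Npy.

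The same lists were followed between barcode groups. In L6-Syt6, 1 of 2 ligands tested was lower (Sst, -0.78), 1 of 9 other receptors was higher (Ntsr2, 0.78) and none of 20 transducers was called, with medians of -0.66, -0.12 and -0.050. In L5-S100b, 1 of 2 ligands was lower (Npy, -1.23), 1 of 7 other receptors was lower (Ntsr1, a neurotensin receptor, -1.03) and again none of 20 transducers was called, with medians of -1.14, -0.16 and 0.042. In L6-Npy (1, 8 and 20 genes tested) and L2/3-Rorb (0, 5 and 20 tested), no list member was called. In the interaction test, 1 of 2 ligands (Sst), 3 of 12 other receptors (led by Ntsr1 and Ntsr2) and 4 of 20 transducers (led by Plcb1 and Adcy2) passed. Of all genes tested, 1.67% were called in L6-Syt6, 2.7% in L5-S100b, 0.801% in L6-Npy, 0.139% in L2/3-Rorb and 7.37% in the interaction test. No call among 20 transducers is near the shares within the subtypes. The medians of the receptors were -0.035 (L6-Syt6), -0.50 (L5-S100b), 0.055 (L6-Npy) and 0.10 (L2/3-Rorb), beside values between -0.0072 and -0.0026 for all genes.

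The few L5-S100b neurons with Npy2r differed from the rest of their subtype, as a description chosen after the values were seen, with no test. An Npy2r UMI was present in 129 neurons and absent in 1280, with median depths of 23914 and 27384.5 UMIs. The neurons with Npy2r held Rxfp1 at 212 ± 23.7 against 98.4 ± 16.7 CPM. They held Sstr1 at 14.5 ± 6.98 against 2.67 ± 0.763 CPM and Oxtr at 5.07 ± 3.62 against 0.868 ± 0.391 CPM. Sstr2 went the other way, at 28.0 ± 9.44 against 60.2 ± 11.6 CPM. In L6-Npy, for comparison, Rxfp1 stood at 291, Oxtr at 9.98 and Sstr2 at 17.7 CPM. The subtype genes differed too. Calb1 stood at 36.2 ± 9.61 against 6.24 ± 0.997 CPM, Bcl6 at 17.96 ± 3.31 against 3.65 ± 1.25 CPM, Npy at 23.1 ± 15.2 against 3.37 ± 0.981 CPM, and S100b at 9.20 ± 4.43 against 53.0 ± 6.28 CPM. In L6-Npy the same genes stood at 49.0 (Calb1), 3.37 (Bcl6), 212 (Npy) and 1.18 CPM (S100b). Viral UMIs were found in 76.0% of the neurons with Npy2r and in 87.2% of those without.

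Co-detection within these neurons was counted against the number expected if both genes were seen independently in each library. Npy2r and Sstr1 were found together in 39 neurons against 11.5 expected, more often in 4 of 4 libraries. Npy2r and Rxfp1 were found together in 111 against 72.1 neurons, and Npy2r and Sstr2 in 54 against 85.7, less often in 4 of 4 libraries. The part of depth, which differs between neurons, was not tested.

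**Figure D5:**
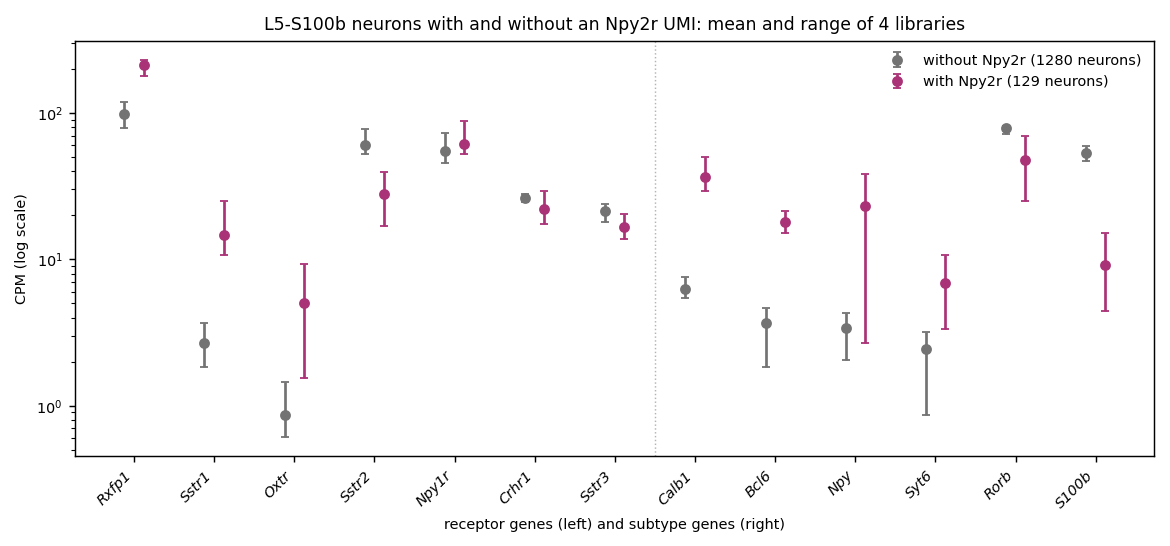
Mean CPM (y axis, log scale) with the range of 4 libraries of receptor genes and subtype genes (x axis) in L5-S100b neurons with (129) and without (1280) an Npy2r UMI. The 129 neurons stand higher for Rxfp1, Sstr1, Calb1 and Bcl6 and lower for Sstr2 and S100b.

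In inhibitory cells, many pairs, though not all, followed the division by Lhx6 and Adarb2. Npy1r and Npy5r were found together in 136 cells against 79.3 expected, Npy1r and Npy2r in 287 against 180, and Sstr1 and Oxtr in 34 against 20.1, each above in 3 of 3 libraries. Npy1r and Oxtr were found together in 12 cells against 59.5. Hcrtr2 and Rxfp1, although both lower in Lhx6+ cells, were found together in 23 cells against 29.2, above in 0 of 3 libraries. In the 6 excitatory subtypes with at least 16 such neurons, Npy1r and Npy5r occurred together with a ratio of 0.89 to 1.08 to the expected number. The neighbours thus had a similar pattern over the neuronal groups, though not similar levels, without being found together more often within these subtypes. In L6-Npy, Npy2r and Sstr2 were found together in 106 neurons against 157.

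Genes with the most similar pattern were sought by Pearson's r of log2(CPM + 1) of the unsorted libraries over 8 groups, the 7 subtypes and inhibitory cells, among 10406 genes. The values share libraries and, with 8 points, high values are found for many genes, so they describe likeness only. The closest were Serf2 (0.984) for Crhr1, Hdac7 (0.973) for Npy1r, Slc5a3 (0.973) for Npy2r, Mtch1 (0.982) for Npy5r and Sssca1 (0.985) for Sstr1. They were Klf7 (0.953) for Sstr2, Mapk11 (0.982) for Sstr3, Rcan3 (0.995) for Hcrtr2, Dennd2a (0.968) for Oxtr and Glipr1 (0.947) for Rxfp1. The next were 2510039O18Rik, Cpne5, Gm10605, Rps6kb2, Sec22a, Klc1, Ankrd40, Rpl7l1, Cdh4 and Sema3e, in the same order of receptors, between 0.934 and 0.982. Among the receptors themselves the most similar pairs were Npy2r with Oxtr (0.925) and Npy1r with Npy5r (0.880).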

How the data were processed

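Single-cell libraries (10x 3' v3) were aligned to mm10 by the authors with Cell Ranger (3.0.2 per the file headers), and the deposited matrices hold UMI counts per gene and cell. The authors normalized the counts with Seurat 3.1.4, clustered the cells with the Leiden algorithm in Scanpy and deposited the subtype of each excitatory neuron, and these names were used. The deposited total of a neuron differs by at most 70 UMIs from the sum used here. The viral feature was left out of sums.

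The receptors and gene lists were chosen with earlier results of these data known. Inhibitory cells were kept within the study's limits (500 to 8000 genes, 1000 to 60000 UMIs, under 20% mitochondrial). Counts were summed per library and group of at least 10 cells and tested over all genes with edgeR 4.0.16 (quasi-likelihood, TMM, filterByExpr, Benjamini-Hochberg) in R 4.3.3, with the library as a block, since groups compared come from the same libraries. The SE is the absolute log2 fold change divided by the square root of F. The steps were tested on simulated data. Levels were computed in Python 3.11.15. Shares are of cells with at least 1 UMI. Gene positions are from the annotation of mm10.

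All 10 receptors were named in every comparison. Of the lists, the 2 called genes with the largest absolute log2 fold change were named. For likeness, the 2 closest genes with at least 10 CPM in a group were named. Alternatives were DESeq2 1.42.0 with its size factors, no filter on low counts, no block, each library left out in turn, barcode-positive at 1 UMI, a depth of 10000 to 40000 UMIs, inhibitory cells without limits or with at least 2 UMIs of Lhx6 or Adarb2, and the mean over cells. The study's methods give 3 mice in 3 wells for the unsorted libraries, so the spread over these libraries joins that between mice and between wells.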

Additional observations from a re-analysis of the deposited data

Results flagged for a closer look

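The difference between barcode-high and barcode-zero neurons was not the same in the 4 subtypes for 3 receptors, by edgeR's test of the interaction. The adjusted p was 5.87e-07 for Rxfp1, 0.00531 for Npy2r and 0.0276 for Sstr1. The call was kept in 9 of 9 alternatives for Rxfp1, in 6 of 9 for Npy2r and in 4 of 9 for Sstr1. For Rxfp1 the log2 differences were -0.93 (L6-Syt6), -0.55 (L5-S100b), 0.13 (L6-Npy) and 0.74 (L2/3-Rorb).

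Outside the neurons compared above, 2 receptors were found in non-neuronal cells at levels far above the other classes. Npy1r had a UMI in 24.1% of mural cells, the contractile cells of small vessels, at 133 ± 26.1 CPM (n = 3 libraries, 476 cells). Sstr1 had a UMI in 14.7% of oligodendrocyte precursors, at 39.8 ± 3.90 CPM (n = 3, 1188 cells). These shares are means over the unsorted libraries, at median depths of 2341 and 4048 UMIs per cell.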

How the results depend on the processing

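Of the log2 fold changes of single receptors under the alternatives, 599 stayed on the same side of the threshold, 31 lost a call and 6 gained one. The sign changed for 17 values, none of them past the threshold under either setting. Without a block for the library, the count of genes called between barcode groups went from 218 to 75 in L6-Syt6 (receptors from 2 to 1), from 310 to 56 in L5-S100b (3 to 1), from 83 to 0 in L6-Npy (2 to 0, with 406 genes at an unadjusted p under 0.05), from 14 to 0 in L2/3-Rorb (285 unadjusted) and from 890 to 73 for the interaction. At 1 viral UMI the counts were 27 in L6-Syt6 (1 receptor), 202 in L5-S100b (1), 31 in L6-Npy (0), 6 in L2/3-Rorb and 333 for the interaction. DESeq2 called 143 genes in L5-S100b, 11 in L6-Npy (0 receptors), 0 in L2/3-Rorb (132 unadjusted) and 1481 between Lhx6+ and Adarb2+ cells, against 2423 by edgeR. Without the filter on low counts, 28 genes were called in L2/3-Rorb and 1 receptor in L6-Npy. Within 10000 to 40000 UMIs, 1 receptor was called in L6-Syt6 and 1 in L6-Npy. Without neurons with an Npy2r UMI, 163 genes were called in L5-S100b.

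With each library left out in turn, the count of genes called between barcode groups ranged from 28 to 309 in L6-Syt6 (1 to 2 receptors), from 178 to 289 in L5-S100b (2 to 5), from 45 to 75 in L6-Npy (0 to 2), from 2 to 33 in L2/3-Rorb (0 receptors) and from 334 to 1260 for the interaction (1 to 4). The lowest counts came without unsorted 2 in L6-Syt6 and for the interaction, and without unsorted 1 in L2/3-Rorb. The contrasts between cell groups were steadier, with 6 to 8 receptors in layer 2/3, 5 to 6 in layer 5, 10 in layer 6, 9 between excitatory and inhibitory cells and 8 between Lhx6+ and Adarb2+ cells. The causes were not tested. Depth limits the low receptors: 47 of 70 detected shares moved by more than the SD over libraries after thinning.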
